A study of Homo sapiens with 12 samples.

Results

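The 10 genes described here encode 2 autophagy receptors (SQSTM1 and NBR1), 5 proteins of the LC3 and GABARAP family (MAP1LC3A, MAP1LC3B, GABARAP, GABARAPL1 and GABARAPL2), 2 proteins that act early in autophagosome formation (ULK1 and WIPI1) and TFEB, a transcription factor of autophagy and lysosome genes. They were chosen by gene name from the 57773 genes of the deposited table, with earlier results of these data known. All 10 were among the 22831 genes with enough counts to be tested. Transcripts were measured by RNA sequencing in PANC-1 cells, an established line derived from a human pancreatic carcinoma, used below passage 30. All libraries were made 24 h after treatment, with 3 libraries per group. The groups were 30 nM chaetocin together with 90 nM MLN8237 (the combination), 30 nM chaetocin alone, 90 nM MLN8237 alone, and vehicle (DMSO). Chaetocin is a fungal compound known to inhibit histone H3K9 methyltransferases and thioredoxin reductase, and MLN8237 (alisertib) inhibits the mitotic kinase Aurora A. No label states that the libraries of a group were separate cultures. The p-values therefore cover the spread between libraries, which may be technical.

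Autophagy encloses cytoplasm in a double membrane, the autophagosome, and delivers it to the lysosome. ULK1 starts the process when nutrient signalling through MTOR falls, WIPI1 binds the phosphatidylinositol 3-phosphate made on the growing membrane, and the LC3 and GABARAP proteins, relatives of yeast Atg8, are joined to a lipid in that membrane. Receptors such as SQSTM1 (p62) and NBR1 carry ubiquitin-marked cargo and bind the LC3 and GABARAP proteins. TFEB enters the nucleus when it is not phosphorylated by MTOR and raises transcription of lysosome and autophagy genes. Pancreatic carcinoma cells are known for high basal autophagy and for their use of the TFEB, TFE3 and MITF factors. Transcript levels do not measure the lipid-joined proteins or the turnover of autophagosomes.

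Before they can be joined to lipid, the LC3 and GABARAP proteins are cut by ATG4 proteases after a glycine near their end. The last coding bases of the 5 genes are shown because they carry this cut site, which the family shares. They were read from GENCODE release 29 transcripts (GRCh38), 5' to 3' up to and including the stop codon, with the codon of that glycine in capitals.
MAP1LC3A: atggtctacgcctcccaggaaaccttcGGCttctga
MAP1LC3B: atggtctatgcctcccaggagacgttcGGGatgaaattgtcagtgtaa
GABARAP: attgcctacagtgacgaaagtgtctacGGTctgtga
GABARAPL1: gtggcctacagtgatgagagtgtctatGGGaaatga
GABARAPL2: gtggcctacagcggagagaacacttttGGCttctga
MAP1LC3B2: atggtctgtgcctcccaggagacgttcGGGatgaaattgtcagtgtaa
MAP1LC3B keeps 5 codons after the glycine, and each of the other 4 members keeps 1. MAP1LC3B2, a near copy of MAP1LC3B that is no member, is added because reads can be shared between them: its coding sequence differs from that of MAP1LC3B at 2 of 378 bases (99.5% identity). Among members, coding sequences were 73.5% identical between MAP1LC3A and MAP1LC3B, 76.8% between GABARAP and GABARAPL1, 62.4% between GABARAP and GABARAPL2 and 62.1% between GABARAPL1 and GABARAPL2. Between an LC3 gene and a GABARAP gene the identity was 51.9% to 58.5%.

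RefSeq promoter windows (GRCh38.p14) were at hand for 9 of the 10 members, with 14 transcription starts. The 250 bases before the start are shown for the 3 members with such a window that had higher transcript levels in the combination, and capitals mark a match to a searched motif.
GABARAPL1, chr12:10212627-10212876, plus strand: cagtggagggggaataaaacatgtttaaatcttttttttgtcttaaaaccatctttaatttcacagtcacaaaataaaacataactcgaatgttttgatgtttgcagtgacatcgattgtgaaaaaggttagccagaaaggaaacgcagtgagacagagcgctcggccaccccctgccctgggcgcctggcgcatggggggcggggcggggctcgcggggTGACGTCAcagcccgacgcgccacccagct
MAP1LC3B, chr16:87392086-87392335, plus strand: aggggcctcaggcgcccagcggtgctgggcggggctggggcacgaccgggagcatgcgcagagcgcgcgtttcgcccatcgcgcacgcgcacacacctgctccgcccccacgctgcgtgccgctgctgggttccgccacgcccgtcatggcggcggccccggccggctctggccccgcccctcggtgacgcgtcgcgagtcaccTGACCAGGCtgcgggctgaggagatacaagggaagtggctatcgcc
ULK1, chr12:131894372-131894621, plus strand: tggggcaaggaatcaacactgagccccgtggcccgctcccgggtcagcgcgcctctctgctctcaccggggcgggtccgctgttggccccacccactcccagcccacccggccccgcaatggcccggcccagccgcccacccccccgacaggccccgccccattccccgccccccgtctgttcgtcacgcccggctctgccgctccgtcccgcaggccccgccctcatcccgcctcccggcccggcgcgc
The motifs were chosen after these windows had been seen, and both strands were searched. GABARAPL1 holds TGACGTCA, the cAMP response element, from 30 to 23 bases before the start. That motif is in 1.65% of 35116 promoters of the same length, and no other member start has it. MAP1LC3B holds a match to TGACNNNGC, the core of the antioxidant response element read by NRF2, from 46 to 38 bases before the start, and 10.9% of all promoters hold 1 or more. The ULK1 window matched none of the motifs. CACGTG, the E-box inside the element that TFEB reads, was in none of the 14 windows and in 6.34% of all promoters. GTAAACA, a forkhead site, was likewise in none of the 14 and in 2.98% of all. Each match is a run of letters and was not tested as a binding site.

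In vehicle cells SQSTM1 was by far the most abundant of the 10 transcripts. Levels between genes are given as CPM, the read count scaled to the total of its library, per kilobase of the deposited gene length, and each value is a mean ± SD (n = 3). SQSTM1 stood at 196 ± 18.3 CPM per kilobase in vehicle, above 99.1% of tested genes. GABARAP followed at 59.0 ± 3.66 and MAP1LC3B at 19.9 ± 0.405 CPM per kilobase. GABARAPL2 was at 13.7 ± 0.912, ULK1 at 7.55 ± 0.783 and NBR1 at 5.07 ± 0.0906 CPM per kilobase. GABARAPL1 (2.92 ± 0.149), MAP1LC3A (2.57 ± 0.463) and WIPI1 (2.46 ± 0.113 CPM per kilobase) lay near the middle of tested genes and did not differ from their neighbour in this order beyond their spread. TFEB was lowest at 0.619 ± 0.0372 CPM per kilobase, above 28.9% of tested genes, with 156 to 206 reads per vehicle library. The order changed with chaetocin, where GABARAPL1 (4.65 ± 0.306) and MAP1LC3A (4.14 ± 0.617) stood above NBR1 (3.61 ± 0.287 CPM per kilobase). In the combination GABARAPL1 was at 5.76 ± 0.951, MAP1LC3A at 4.40 ± 0.886 and NBR1 at 3.80 ± 0.243 CPM per kilobase, and MAP1LC3A and NBR1 did not differ beyond their spread in either group. With MLN8237 NBR1 remained above both, at 4.78 ± 0.494 CPM per kilobase. This change of order rests on the deposited gene lengths. In CPM, before division by length, NBR1 averaged 30.4 with chaetocin and 32.0 in the combination. That was above GABARAPL1 (19.0 and 23.5 CPM) and MAP1LC3A (7.30 and 7.75 CPM) in the same groups.

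With chaetocin, 3 of the 10 members rose (GABARAPL1, MAP1LC3A and ULK1) and 2 fell (TFEB and NBR1). With the combination the same 5 changed in the same direction and MAP1LC3B rose as well, making 4 higher and 2 lower. The count of 5 with chaetocin was 3 without chaetocin replicate 2, chaetocin replicate 3 or vehicle replicate 2. Calls over all tested genes fell as well, from 5591 of 22831 to 3733 of 23611, 3951 of 23571 and 3704 of 23659 in that order. With MLN8237 alone no member passed the test. Fold changes are from edgeR's quasi-likelihood test with Benjamini-Hochberg adjustment over all tested genes, and a change was called at an adjusted p under 0.05. Over all tested genes, 24.5% were called in chaetocin against vehicle (12.6% higher, 11.9% lower), 38.5% in combination against vehicle (20.1% higher, 18.3% lower) and 0.00438% in MLN8237 against vehicle, where 1 gene, RP3-375P9.2, was called. The median log2 fold change of the members was 0.14 with the combination and 0.19 with chaetocin, against 0.016 and 0.013 over all tested genes. With MLN8237, where no member was called, it was 0.13, against -2.8e-06 over all tested genes. The 3 combination libraries lay wholly above the 3 vehicle libraries for 4 members and wholly below for 3, where 27.5% of all tested genes were above and 27.4% below (54.8% in all). Likewise 4 members were above and 3 below vehicle with chaetocin (24.2% and 23.9% of all genes, 48.0% in all). Each of the treatments was set against the same 3 vehicle libraries.

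**Figure D1:**
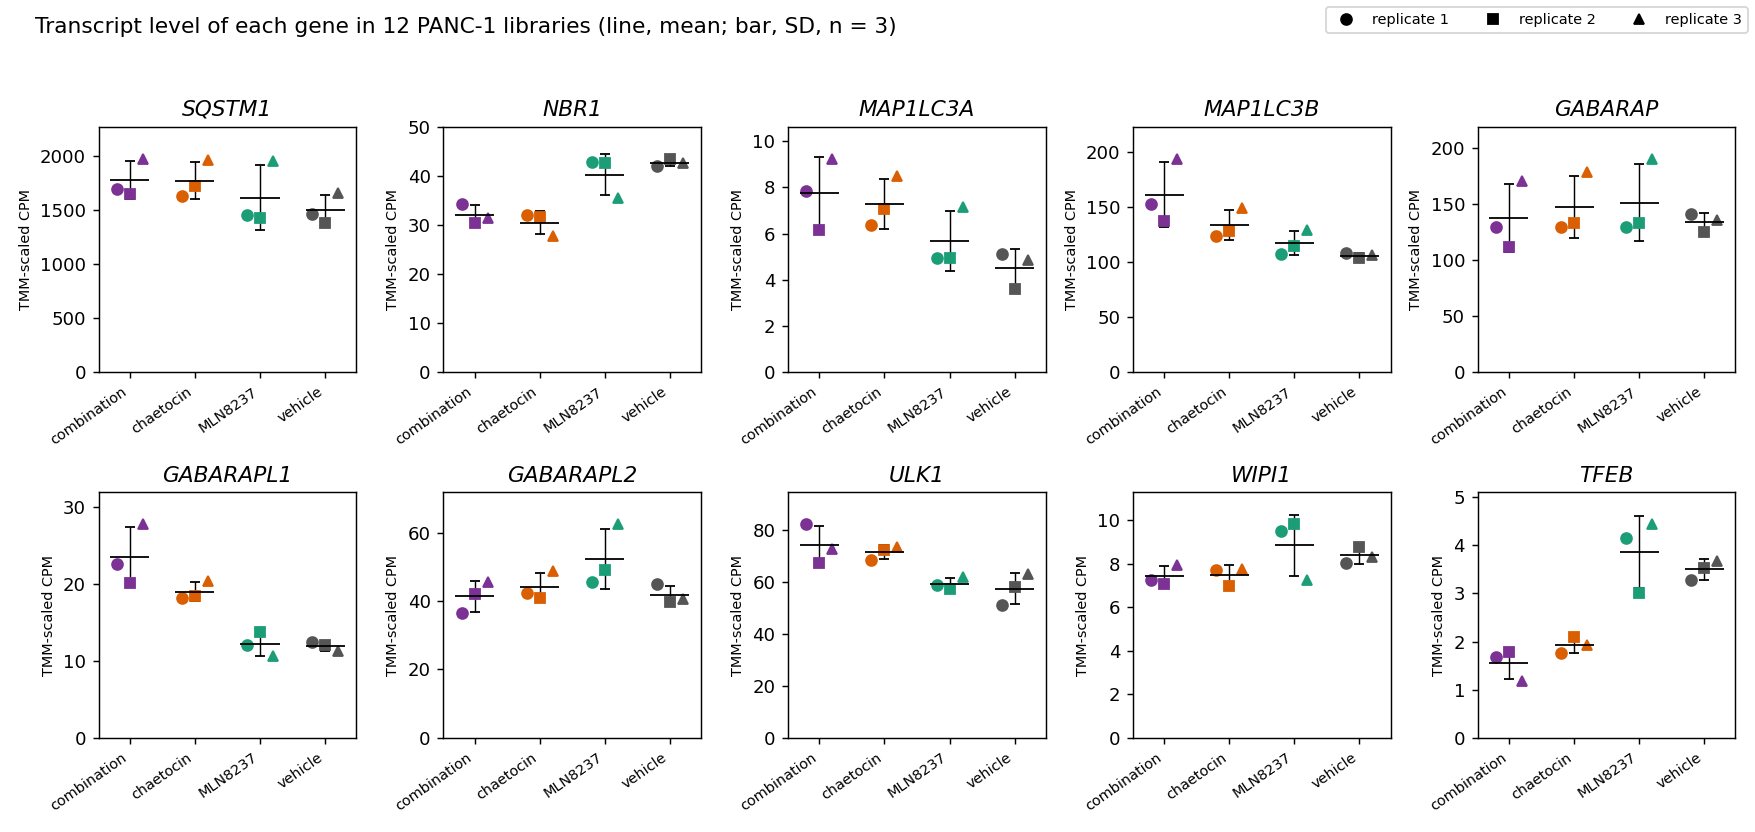
TMM-scaled CPM (vertical axes, each from 0) of the 10 genes in the 12 libraries, with groups from left to right as combination, chaetocin, MLN8237 and vehicle. Symbols mark the replicate number, lines the mean and bars the SD (n = 3). GABARAPL1 and ULK1 are higher, and NBR1 and TFEB lower, in all 6 libraries with chaetocin than in all 6 without it.

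The treated libraries numbered 3 stood apart from the other libraries of their groups. On the second principal component (14.6% of variance) they lay at -28.1 (combination), -32.2 (chaetocin) and -82.7 (MLN8237), against 3.31 to 34.8 in the other 9. SQSTM1, MAP1LC3A, MAP1LC3B, GABARAP and GABARAPL2 were highest in number 3 in each treated group, as were 20.8% of all tested genes. Summed gene counts were 49439795 to 63747510 per library. Of the markers of cell types, all 6 epithelial genes were detected and their summed level was 1847 to 2178 CPM in the combination, 2250 to 2420 with chaetocin, 4348 to 5128 with MLN8237 and 4042 to 4644 in vehicle, so it was lower in every library with chaetocin. KRT8, KRT18 and KRT19 make up most of that sum, and KRT7 did not follow it, at 4.42 to 5.27 CPM in the combination, 4.70 to 6.63 with chaetocin, 4.94 to 7.18 with MLN8237 and 3.49 to 4.86 in vehicle. The 5 immune markers summed to 1.21 to 2.63 CPM in the combination, 1.22 to 1.78 with chaetocin, 0.392 to 0.812 with MLN8237 and 0.584 to 0.818 in vehicle. The acinar sum was at most 0.219 CPM with PNLIP at 0 and the endocrine sum at most 0.357 CPM with INS at 0. The 3 endothelial markers measured summed to 1.40 to 4.48 CPM in the combination, 1.46 to 1.68 with chaetocin, 0.0368 to 0.165 with MLN8237 and 0.0715 to 0.168 in vehicle. The 5 fibroblast markers summed to 32.4 to 48.2 CPM in the combination, 54.1 to 62.6 with chaetocin, 53.5 to 61.5 with MLN8237 and 63.7 to 79.9 in vehicle, and DCN and LUM among them had 4 and 7 reads over all libraries. The part of these markers in the changes of the members was not tested. All libraries are of the same cell line. In RNA from whole cultures, fewer cells expressing a marker and less of its RNA per cell cannot be told apart.

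SQSTM1 (ENSG00000161011, hg19 5:179233388-179265078) encodes p62, which gathers ubiquitin-marked proteins into bodies for autophagy and binds the NRF2 inhibitor KEAP1. Its level was 1695, 1647 and 1974 CPM in the combination libraries, 1628, 1720 and 1959 CPM with chaetocin, 1455, 1428 and 1955 CPM with MLN8237, and 1464, 1378 and 1653 CPM in vehicle. Number 3 was the highest library in every group, and each treated group overlapped vehicle. The log2 fold change was 0.24 ± 0.134 (SE) in the combination (edgeR adjusted p = 0.177) and 0.24 ± 0.134 with chaetocin (edgeR adjusted p = 0.225). With MLN8237 it was 0.11 ± 0.134 (edgeR adjusted p = 0.715). These changes were smaller than the spread between libraries allowed the test to call. Without the 3 treated libraries numbered 3 the MLN8237 value was -0.055. C5orf45 lies on the opposite strand and shares 3643 bases with SQSTM1, at 782 to 1428 CPM. The sources used here do not say whether reads were assigned by strand, so reads of the pair may have been mixed.

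NBR1 (ENSG00000188554, hg19 17:41322498-41363708), the receptor that binds ubiquitin-marked cargo alongside p62, fell. It had 34.3, 30.4 and 31.4 CPM in the combination, 32, 31.7 and 27.7 CPM with chaetocin, 42.8, 42.6 and 35.4 CPM with MLN8237, and 42.0, 43.5 and 42.6 CPM in vehicle. All 6 libraries with chaetocin were below all 6 without it. The log2 fold change was -0.41 ± 0.0973 in the combination (edgeR adjusted p = 0.00461) and -0.49 ± 0.0974 with chaetocin (edgeR adjusted p = 0.00304), and both calls held under all 20 alternative settings. MLN8237 alone gave -0.085 ± 0.0972 (edgeR adjusted p = 0.684). The ratio of SQSTM1 to NBR1 per kilobase was 54.3 to 69.0 in the combination and 55.9 to 77.8 with chaetocin, against 36.9 to 60.6 with MLN8237 and 34.8 to 42.7 in vehicle. Each chaetocin and each combination library was above every vehicle library in this ratio, but MLN8237 replicate 3 lay within their range.

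Among the other cargo receptors, 1 of 16 rose and 5 fell in the combination, and 1 rose and 3 fell with chaetocin. The shares called, 37.5% in the combination and 25% with chaetocin, lay near the 38.5% and 24.5% of all tested genes. OPTN (optineurin), a receptor for damaged mitochondria and bacteria, averaged 50.9 ± 5.53 CPM in the combination, 53.0 ± 3.47 with chaetocin, 99.8 ± 6.76 with MLN8237 and 99.7 ± 4.11 in vehicle (SD, n = 3). Its log2 fold change was -0.97 ± 0.0967 in the combination (edgeR adjusted p = 1.42e-05) and -0.91 ± 0.0966 with chaetocin (edgeR adjusted p = 4.32e-05). BNIP3L (NIX), a mitochondrial receptor, fell by 0.52 on the log2 scale in the combination (edgeR adjusted p = 2.76e-04). CCPG1, a receptor for the endoplasmic reticulum, fell by 0.54 in the combination and by 0.57 with chaetocin, and shares 53263 bases with the readthrough gene DYX1C1-CCPG1 on the same strand, so its counts are uncertain. These calls of OPTN, BNIP3L in the combination and CCPG1 held under all 20 alternatives. BNIP3 was the 1 receptor that rose. It was at 0.32 ± 0.0896 in the combination (edgeR adjusted p = 0.0131) and 0.35 ± 0.0896 with chaetocin (edgeR adjusted p = 0.0131). These BNIP3 calls were lost under 3 of the 20 alternatives in the combination and 2 with chaetocin.

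GABARAPL1 (ENSG00000139112, hg19 12:10365057-10375727), a GABARAP-branch protein also known as GEC1, had the largest rise of the 10 members in the combination. It had 22.6, 20.2 and 27.8 CPM in the combination, 18.16, 18.41 and 20.44 CPM with chaetocin, 12.1, 13.8 and 10.7 CPM with MLN8237, and 12.5, 12.1 and 11.3 CPM in vehicle. The 6 libraries with chaetocin, at 18.16 to 27.8 CPM, did not overlap the 6 without it, at 10.7 to 13.8 CPM. The combination was 1.97-fold vehicle (log2 0.98 ± 0.129, edgeR adjusted p = 9.92e-05) and chaetocin was 1.59-fold vehicle (log2 0.67 ± 0.129, edgeR adjusted p = 0.00243). Both calls held under all 20 alternatives. MLN8237 alone gave a log2 fold change of 0.027 ± 0.130 (edgeR adjusted p = 0.938). The promoter with the cAMP response element shown above is that of this gene. Nearest to it in pattern over the 12 libraries, by the root mean square difference of centred log2 CPM among 12593 genes, were GCH1 (0.0883), C3orf67 (0.0896) and RELT (0.0923).

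MAP1LC3B (ENSG00000140941, hg19 16:87417601-87438385) encodes LC3B, the protein most used to follow autophagosomes. It had 153, 137 and 194 CPM in the combination, 124, 128 and 149 CPM with chaetocin, 107, 115 and 129 CPM with MLN8237, and 108, 103 and 106 CPM in vehicle. Every combination and every chaetocin library was above every vehicle library, and the lower chaetocin libraries overlapped MLN8237. The rise was 1.53-fold in the combination (log2 0.61 ± 0.125, edgeR adjusted p = 0.00197), which held under all 20 alternatives. With chaetocin the log2 fold change of 0.34 ± 0.125 missed the threshold (edgeR adjusted p = 0.0637), but it passed under 7 of the 19 alternatives other than the replicate block. It passed when only the groups compared were fitted (edgeR adjusted p = 0.00606), with the stricter filter on low counts (0.0436) and with DESeq2 (adjusted p = 0.0390). It also passed without the 3 treated libraries numbered 3 (adjusted p = 0.0100), and without combination replicate 2 (0.0455), combination replicate 3 (0.0261) or MLN8237 replicate 3 (0.0331) alone, each by edgeR. MLN8237 gave 0.15 ± 0.125 (edgeR adjusted p = 0.581).

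The near copy MAP1LC3B2 was at 7.15 to 11 CPM and also rose in the combination, by 0.42 ± 0.111 on the log2 scale (edgeR adjusted p = 0.00965), a call that was lost with no filter on low counts (edgeR adjusted p = 0.0582). With chaetocin its value was 0.12 ± 0.111 (edgeR adjusted p = 0.497). How reads that fit both genes were assigned is not stated. FBXO31 overlaps MAP1LC3B by 8148 bases on the opposite strand at 20.5 to 25.4 CPM and was not called against vehicle. PNP lay nearest to MAP1LC3B in pattern, at a root mean square difference of 0.0372, followed by THAP4 at 0.0506.

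MAP1LC3A (ENSG00000101460, hg19 20:33134658-33148149) encodes LC3A, the closest relative of LC3B among the members. It had 7.86, 6.14 and 9.25 CPM in the combination, 6.35, 7.06 and 8.49 CPM with chaetocin, 4.93, 4.94 and 7.16 CPM with MLN8237, and 5.12, 3.59 and 4.86 CPM in vehicle. Combination and chaetocin libraries were all above vehicle, and MLN8237 replicate 3 lay among them. The rise in the combination was 1.71-fold (log2 0.78 ± 0.204, edgeR adjusted p = 0.00885) and held under all 20 alternatives. With chaetocin it was 1.61-fold (log2 0.69 ± 0.204, edgeR adjusted p = 0.0256). That call was lost without chaetocin replicate 2 (edgeR adjusted p = 0.0591), chaetocin replicate 3 (0.105), vehicle replicate 2 (0.116) or vehicle replicate 3 (0.0521). MLN8237 gave 0.33 ± 0.205 (edgeR adjusted p = 0.516).

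GABARAP and GABARAPL2 were not called against vehicle in any treatment. GABARAP (ENSG00000170296, hg19 17:7143333-7146089), the founding protein of its branch and known to bind ULK1, had 130, 112 and 170 CPM in the combination, 130, 133 and 178 CPM with chaetocin, 129, 133 and 190 CPM with MLN8237, and 141, 124 and 136 CPM in vehicle. Each treated group had 1 high library, number 3, and straddled vehicle. Its log2 fold change was 0.039 ± 0.180 in the combination (edgeR adjusted p = 0.889), 0.14 ± 0.180 with chaetocin (0.637) and 0.17 ± 0.180 with MLN8237 (0.656). Without the 3 treated libraries numbered 3 the values were -0.13 in the combination, -0.018 with chaetocin and -0.029 with MLN8237, so its direction rests on those libraries. CTD-2545G14.7 shares 2344 bases with GABARAP on the same strand and had 1.10 to 1.14 times its level in every library. It was also the gene nearest to GABARAP in pattern, at a root mean square difference of 0.0192. The sources do not say how reads that lie in both genes were counted, so the level of GABARAP is uncertain.

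GABARAPL2 (ENSG00000034713, hg19 16:75600249-75611779), also known as GATE-16, had 36.4, 42.0 and 45.6 CPM in the combination, 42.4, 40.7 and 48.7 CPM with chaetocin, 45.5, 48.9 and 62.4 CPM with MLN8237, and 44.9, 39.8 and 40.4 CPM in vehicle. It was the only member whose 3 MLN8237 libraries were all above vehicle, a lack of overlap seen in 14.0% of all tested genes (6.96% higher, 7.06% lower). Its log2 fold change with MLN8237 was 0.33 ± 0.127 (edgeR adjusted p = 0.516). It was -0.013 ± 0.127 in the combination (edgeR adjusted p = 0.948) and 0.075 ± 0.127 with chaetocin (edgeR adjusted p = 0.723). RP11-77K12.8, on the opposite strand, overlaps it by 11531 bases at no more than 3.74 CPM.

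**Figure D2:**
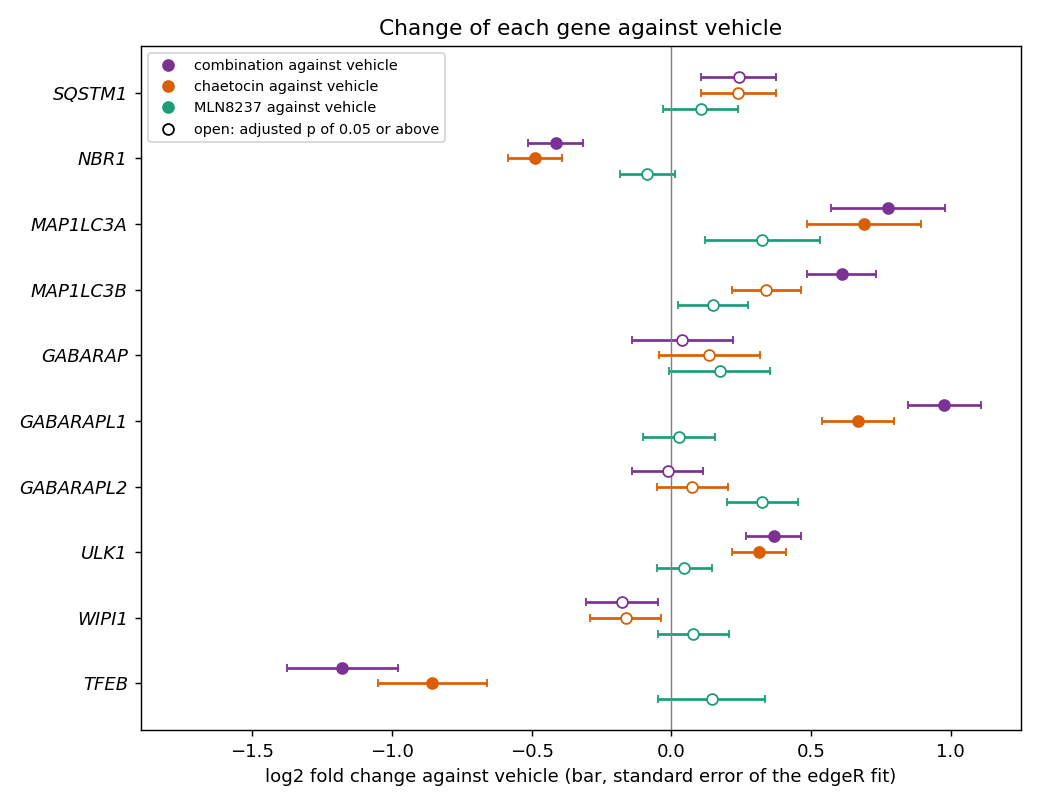
Log2 fold change against vehicle (horizontal axis) of the 10 genes, with combination above chaetocin above MLN8237 in each row and bars for the standard error of the edgeR fit. Filled points have an adjusted p under 0.05. GABARAPL1 reaches 0.98 in the combination and TFEB -1.18, and every MLN8237 point is open.

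The share of each LC3 and GABARAP gene in their summed transcript level is given as a description. The 5 genes summed to 115 ± 21.5 CPM per kilobase in the combination, 113 ± 16.9 with chaetocin, 112 ± 20.5 with MLN8237 and 98.1 ± 5.30 in vehicle (SD, n = 3). GABARAP held 52.6 ± 1.80% of the sum in the combination, 57.0 ± 2.0% with chaetocin, 59.1 ± 2.54% with MLN8237 and 60.1 ± 0.675% in vehicle. MAP1LC3B held 26.5 ± 0.150% in the combination, 22.3 ± 1.0% with chaetocin, 19.9 ± 1.69% with MLN8237 and 20.3 ± 0.690% in vehicle. GABARAPL1 held 5.03 ± 0.118% in the combination, 4.14 ± 0.321% with chaetocin, 2.74 ± 0.722% with MLN8237 and 2.99 ± 0.207% in vehicle. In all 3 combination libraries the shares of MAP1LC3B and GABARAPL1 were above, and that of GABARAP below, every library of the other 3 groups. The share of MAP1LC3A was 3.83 ± 0.281% in the combination, 3.66 ± 0.156% with chaetocin, 2.86 ± 0.130% with MLN8237 and 2.61 ± 0.348% in vehicle. That of GABARAPL2 was 12 ± 1.9% in the combination, 12.9 ± 0.776% with chaetocin, 15.4 ± 0.305% with MLN8237 and 14 ± 0.45% in vehicle. Shares of 1 sum are tied to each other and were not tested. All rest on the level of GABARAP, which is uncertain because CTD-2545G14.7 shares its bases. They also rest on the deposited gene lengths. Before division by length, GABARAP averaged 134 CPM and MAP1LC3B 106 CPM in vehicle.

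**Figure D3:**
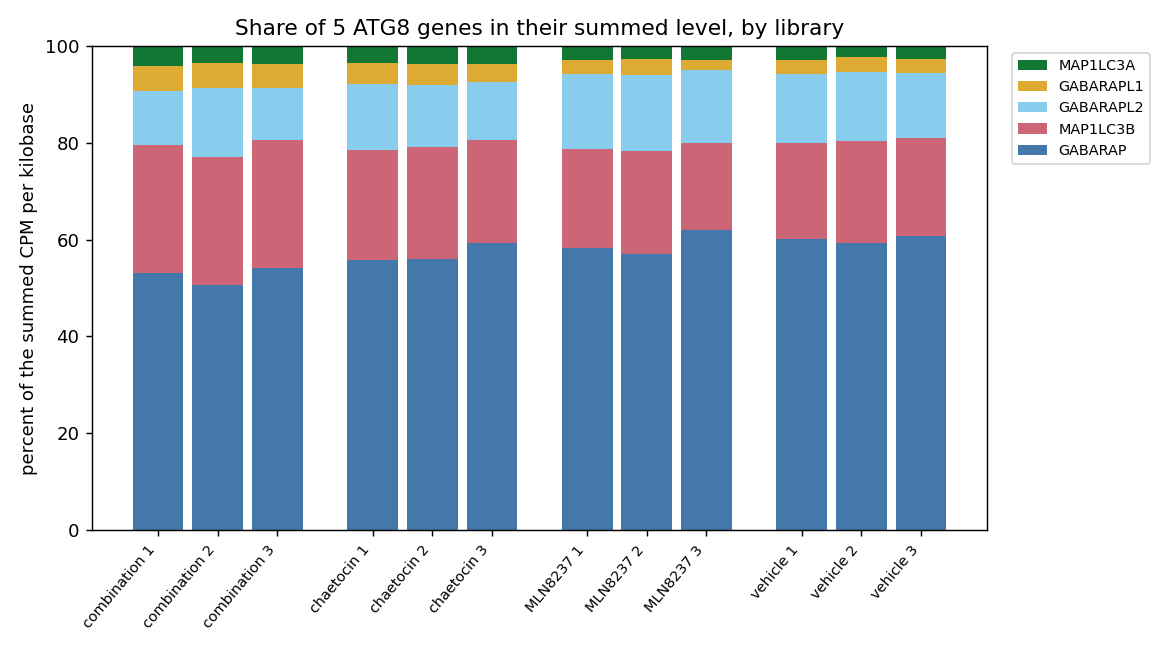
Share of the 5 LC3 and GABARAP genes in their summed CPM per kilobase (vertical axis, percent) in each of the 12 libraries, from combination on the left to vehicle on the right. GABARAP takes 52.6% on average in the combination and 60.1% in vehicle, and MAP1LC3B 26.5% in the combination and 20.3% in vehicle.

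ULK1 (ENSG00000177169, hg19 12:132379196-132407712), the kinase that starts autophagosome formation, rose modestly. It had 82.1, 67.2 and 72.9 CPM in the combination, 68.3, 72.2 and 73.6 CPM with chaetocin, 59.0, 57.2 and 61.8 CPM with MLN8237, and 51.2, 58.0 and 63.1 CPM in vehicle. All 6 libraries with chaetocin were above all 6 without it. The rise was 1.29-fold in the combination (log2 0.37 ± 0.0979, edgeR adjusted p = 0.00974) and 1.24-fold with chaetocin (log2 0.31 ± 0.0978, edgeR adjusted p = 0.0328). The call in the combination was lost without vehicle replicate 1 (edgeR adjusted p = 0.0624). The call with chaetocin was lost without chaetocin replicate 1 (edgeR adjusted p = 0.0518), chaetocin replicate 2 (0.101), chaetocin replicate 3 (0.107), vehicle replicate 1 (0.149) or vehicle replicate 2 (0.0896), and with no filter on low counts (0.0628). MLN8237 gave 0.046 ± 0.0980 (edgeR adjusted p = 0.835).

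WIPI1 (ENSG00000070540, hg19 17:66417089-66453654), a lipid-binding protein of the forming autophagosome, was not called against vehicle. It had 7.25, 7.06 and 7.94 CPM in the combination, 7.72, 6.96 and 7.78 CPM with chaetocin, 9.50, 9.81 and 7.24 CPM with MLN8237, and 8.03, 8.79 and 8.33 CPM in vehicle. Combination and chaetocin libraries were all below vehicle, as was MLN8237 replicate 3. The log2 fold change was -0.18 ± 0.128 in the combination (edgeR adjusted p = 0.303), -0.16 ± 0.128 with chaetocin (0.396) and 0.079 ± 0.128 with MLN8237 (0.780). RP11-120M18.2 covers the gene on the opposite strand over 36566 bases at 7.66 to 34.2 CPM, so the counts of WIPI1 are uncertain.

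TFEB (ENSG00000112561, hg19 6:41651716-41703997) had the largest change of the 10 genes, and it was a fall. It had 1.68, 1.78 and 1.17 CPM in the combination, 1.77, 2.10 and 1.92 CPM with chaetocin, 4.15, 3.02 and 4.43 CPM with MLN8237, and 3.27, 3.54 and 3.68 CPM in vehicle. The 6 libraries with chaetocin, at 1.17 to 2.10 CPM, all lay below the 6 without it, at 3.02 to 4.43 CPM. The level fell to 0.442 of vehicle in the combination (log2 -1.18 ± 0.197, edgeR adjusted p = 5.22e-04) and to 0.553 of vehicle with chaetocin (log2 -0.86 ± 0.195, edgeR adjusted p = 0.00653). Both calls held under all 20 alternatives. MLN8237 gave 0.14 ± 0.191 (edgeR adjusted p = 0.727). TFEB rests on 69 to 226 reads per library, the fewest of the 10 genes. Its nearest patterns were those of TBX1 (0.160), IL15RA (0.172) and MTG1 (0.175), at root mean square differences larger than for the other 9 members.

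Of the 6 libraries with chaetocin against the 6 without it, 4 of the 10 members did not overlap, with GABARAPL1 and ULK1 higher and NBR1 and TFEB lower. Among all tested genes 28.2% did not overlap in this way (14.1% in each direction). Libraries with and without chaetocin each hold MLN8237 in 3 of 6.

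Without the 3 treated libraries numbered 3, all 6 members called in the combination and all 5 called with chaetocin were called again by edgeR. More genes in all passed in that fit, 10855 of 22983 in the combination and 7577 with chaetocin. The main fit had called 8780 and 5591 of 22831. In the combination GABARAPL1 was then at 0.85 on the log2 scale, MAP1LC3A at 0.64, MAP1LC3B at 0.47 and ULK1 at 0.39, and NBR1 was at -0.39 and TFEB at -1.003. With chaetocin GABARAPL1 was at 0.62, MAP1LC3A at 0.58 and ULK1 at 0.30, and NBR1 was at -0.41 and TFEB at -0.84. SQSTM1 was at 0.17 in both and was not called. WIPI1 and GABARAPL2 were not called either, at -0.22 and -0.078 in the combination and at -0.18 and 0.0043 with chaetocin. With MLN8237 alone 0 of 10 were called by edgeR and GABARAPL2 was at 0.18.

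Adding MLN8237 to chaetocin changed no member past the threshold. In combination against chaetocin, 0 of 10 members were called by edgeR, against 0% of all tested genes, and DESeq2 and limma-voom also called 0 members. At an unadjusted p under 0.05 there were 2 members and 2677 of all genes. These were GABARAPL1, with a log2 difference of 0.31 ± 0.127 (edgeR adjusted p = 0.379), and MAP1LC3B, with 0.27 ± 0.124 (edgeR adjusted p = 0.426). TFEB was at -0.32 ± 0.199 (edgeR adjusted p = 0.555). GABARAPL1 of combination replicate 2, at 20.2 CPM, was below chaetocin replicate 3, at 20.4 CPM, so these groups overlapped by 1 library. For each of the 10 members the 3 combination libraries overlapped the 3 chaetocin libraries, and 18.7% of all tested genes did not (9.54% higher, 9.15% lower).

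The interaction asks whether the log2 change with both compounds differs from what the 2 single-compound log2 changes add up to. No member passed by edgeR, DESeq2 or limma-voom, against 0% of all tested genes by edgeR. At an unadjusted p under 0.05 there was 1 member, GABARAPL2, and 3108 of all genes. GABARAPL2 had -0.41 ± 0.179 (edgeR adjusted p = 0.362), TFEB had -0.47 ± 0.275 (edgeR adjusted p = 0.426) and GABARAPL1 had 0.28 ± 0.182 (edgeR adjusted p = 0.457). Against vehicle, MLN8237 alone likewise gave 0 called members by edgeR, DESeq2 and limma-voom, with 1 member (GABARAPL2) and 1938 of all genes at an unadjusted p under 0.05. Its 10 log2 fold changes ran from -0.085 to 0.33.

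Adding chaetocin to MLN8237 raised 3 members and lowered 3, when 45.9% of all tested genes were called (23.3% higher, 22.7% lower). GABARAPL1 was 1.93-fold higher in the combination than with MLN8237 (log2 0.95 ± 0.129, edgeR adjusted p = 1.15e-04). MAP1LC3B rose by 0.46 ± 0.125 (edgeR adjusted p = 0.00916) and ULK1 by 0.32 ± 0.0979 (edgeR adjusted p = 0.0170). TFEB fell to 0.400 of its MLN8237 level (log2 -1.32 ± 0.198, edgeR adjusted p = 2.18e-04). NBR1 fell by 0.33 (edgeR adjusted p = 0.0145) and GABARAPL2 by 0.34 (edgeR adjusted p = 0.0433) on the log2 scale. The 3 combination libraries overlapped the MLN8237 libraries for GABARAPL2 but not for the other 5, while 51.3% of all tested genes did not overlap (26.8% higher, 24.5% lower).

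Some of these calls in combination against MLN8237 depended on a setting or on 1 library. When only the groups compared were fitted, NBR1 (edgeR adjusted p = 0.0764), GABARAPL2 (0.123) and ULK1 (0.0574) were lost. GABARAPL2 was also lost with RLE scaling (0.0503) and with the stricter filter (0.0982), and ULK1 with no filter (0.0557). Among single libraries, GABARAPL2 was lost without combination replicate 1 (edgeR adjusted p = 0.178), combination replicate 2 (0.0686), MLN8237 replicate 3 (0.140) or vehicle replicate 2 (0.0502). ULK1 was lost without combination replicate 1 (edgeR adjusted p = 0.0897) or MLN8237 replicate 2 (0.0574), and NBR1 without MLN8237 replicate 2 (0.0601). MAP1LC3A, at 0.45 ± 0.202 (edgeR adjusted p = 0.0845), passed without combination replicate 2 (0.0389) or MLN8237 replicate 3 (0.0171). SQSTM1 and WIPI1 also passed without MLN8237 replicate 3, with edgeR adjusted p values of 0.0465 and 0.0113. Without the 3 treated libraries numbered 3, the 6 called members stayed called and MAP1LC3A (edgeR adjusted p = 0.0276) and WIPI1 (0.00944) passed as well. That fit called 10548 of 22983 genes in all, against 10487 of 22831 in the main fit.

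The other genes of the pathway were followed as 8 lists of 114 genes, of which 113 were tested. In the combination 36 of the 113 rose and 23 fell (52.2%, against 38.5% of all tested genes), with a median log2 fold change of 0.084. With chaetocin 13 rose and 18 fell (27.4%, against 24.5% of all genes), with a median of -0.054. The chaetocin count of 31 was 18 without chaetocin replicate 2 and 20 without chaetocin replicate 3. It was 19 without vehicle replicate 2 and 51 without MLN8237 replicate 3. Calls over all tested genes moved the same way, from 5591 to 3733, 3951, 3704 and 7551 in that order. With MLN8237 alone 0 were called by edgeR, DESeq2 or limma-voom, and 5 had an unadjusted p under 0.05. Apart from MAP1LC3B2, BNIP3, MITF and MTOR, each pathway gene that is said to have risen or fallen kept that call under all 20 alternatives. Of the 3 other LC3 and GABARAP genes, MAP1LC3B2 is described above, and MAP1LC3C and GABARAPL3 had 219 and 39 reads over all 12 libraries.

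**Figure D4:**
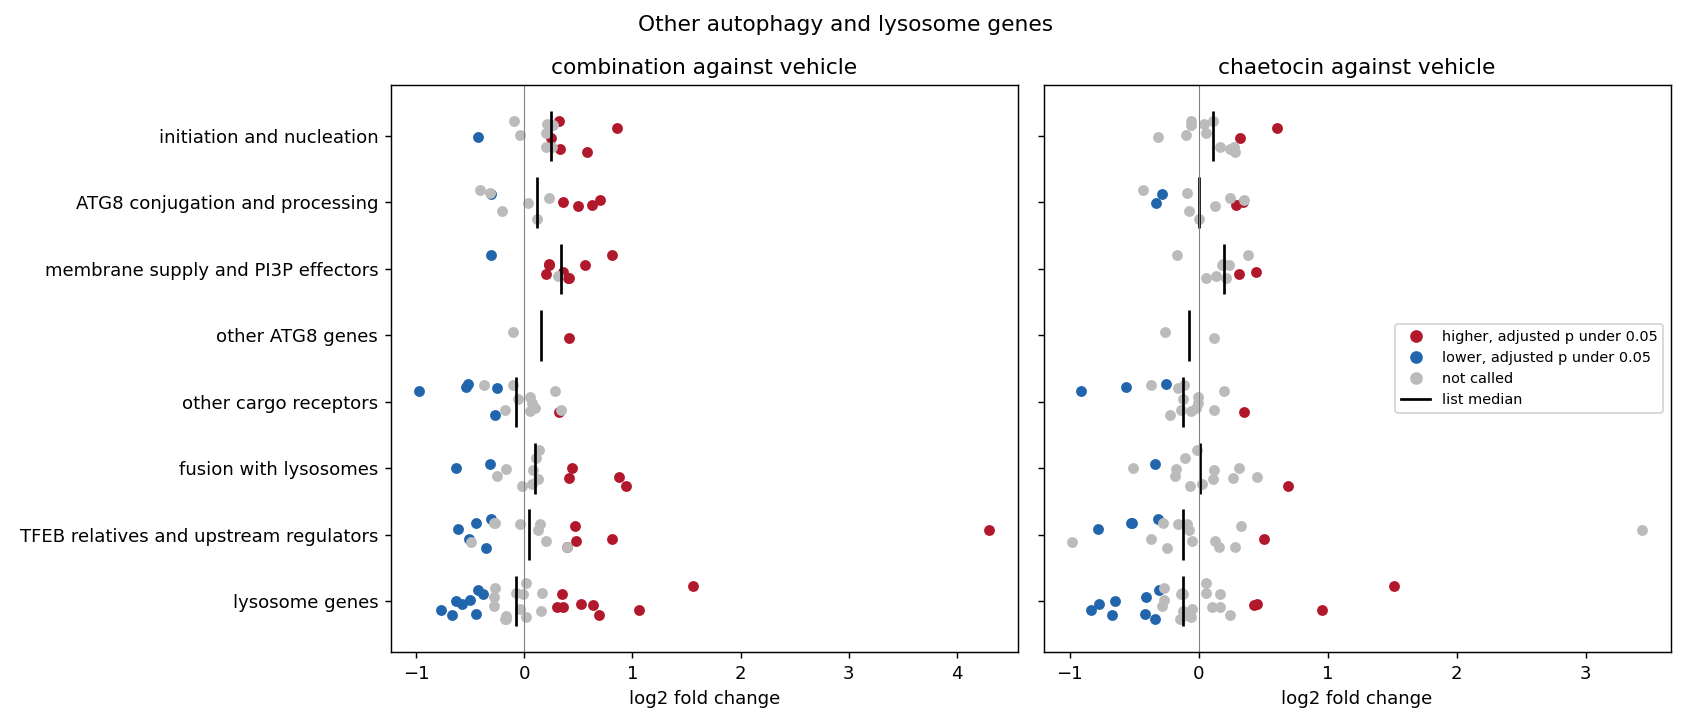
Log2 fold change (horizontal axis) of the 113 other autophagy and lysosome genes by list, combination against vehicle on the left and chaetocin against vehicle on the right. Points are genes, coloured where the edgeR adjusted p is under 0.05, and vertical lines are list medians. The highest of the 10 genes for membrane supply and phosphatidylinositol 3-phosphate binding in the combination, ATG2B, is at 0.81, and the point at 4.30 is TFEC, with 2 reads in vehicle.

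Genes for membrane supply and phosphatidylinositol 3-phosphate binding had 8 of 10 higher and 1 lower in the combination, with a median of 0.34, and 2 of 10 higher with chaetocin. The shares called were 90% in the combination, against 38.5% of all tested genes, and 20% with chaetocin, against 24.5%. ATG2B, which moves lipid to the growing membrane, averaged 11.7 ± 1.57 CPM in the combination, 8.68 ± 0.453 with chaetocin, 5.63 ± 0.518 with MLN8237 and 6.67 ± 1.08 in vehicle, and rose by 0.81 ± 0.142 in the combination (edgeR adjusted p = 7.14e-04). ZFYVE1 (DFCP1), a marker of the sites where autophagosomes form, rose by 0.56 ± 0.085 in the combination (edgeR adjusted p = 2.63e-04). TMEM41B, a lipid-moving protein of the endoplasmic reticulum, rose by 0.36 ± 0.0741 in the combination and by 0.44 ± 0.0741 with chaetocin. VMP1, the 1 gene of this list that fell in the combination, fell by 0.31 ± 0.0729 (edgeR adjusted p = 0.00459).

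Of the 13 initiation genes, 5 rose and 1 fell in the combination, and 2 rose with chaetocin. That is 46.2% called in the combination, against 38.5% of all tested genes, and 15.4% with chaetocin, against 24.5%. RUBCN, which holds back fusion of autophagosomes with lysosomes and is listed in the table under its older name KIAA0226, averaged 76.8 ± 10.4 CPM in the combination, 64.7 ± 1.23 with chaetocin, 37.4 ± 1.22 with MLN8237 and 42.4 ± 3.48 in vehicle. It rose by 0.86 ± 0.101 in the combination (edgeR adjusted p = 4.51e-05) and by 0.61 ± 0.10 with chaetocin (edgeR adjusted p = 9.36e-04). RUBCN overlaps FYTTD1, at up to 157 CPM, by 12549 bases on the opposite strand, so its counts are uncertain. NRBF2, a subunit of the lipid kinase complex that acts after ULK1, rose by 0.58 ± 0.118 in the combination. Of the 11 genes that process LC3 and GABARAP proteins, 4 rose and 1 fell in the combination, and 2 rose and 2 fell with chaetocin. Here 45.5% and 36.4% were called, against the same 38.5% and 24.5% of all tested genes. ATG12, which forms part of the enzyme that joins them to lipid, rose by 0.63 ± 0.0936 in the combination. ATG4B, the main protease that cuts the sites shown above, rose by 0.70 ± 0.158 in the combination (edgeR adjusted p = 0.00356). ATG7, the 1 gene of this list that fell in the combination, fell by 0.30 ± 0.0885 (edgeR adjusted p = 0.0154).

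Of 14 genes for fusion with lysosomes, 4 rose and 2 fell in the combination, and 1 rose and 1 fell with chaetocin. The shares called were 42.9% in the combination, against 38.5% of all tested genes, and 14.3% with chaetocin, against 24.5%. PLEKHM1, an adaptor that binds RAB7 and the LC3 and GABARAP proteins, averaged 34.2 ± 4.39 CPM in the combination, 28.7 ± 1.31 with chaetocin, 15.1 ± 1.39 with MLN8237 and 17.8 ± 1.72 in vehicle. It rose by 0.94 ± 0.115 in the combination (edgeR adjusted p = 5.95e-05) and by 0.69 ± 0.115 with chaetocin (edgeR adjusted p = 9.80e-04). EPG5, a tether for fusion, rose by 0.87 ± 0.179 in the combination, and its value with chaetocin was 0.45 ± 0.179 (edgeR adjusted p = 0.0863). VPS33A, a subunit of the tethering complexes at the lysosome, fell by 0.32 in the combination (edgeR adjusted p = 0.00441) and by 0.34 with chaetocin (edgeR adjusted p = 0.00562), and shares 36860 bases with RP11-512M8.5 on the same strand, so its counts are uncertain.

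Among 18 relatives and upstream regulators of TFEB, 5 rose and 5 fell in the combination, and 1 rose and 4 fell with chaetocin. That is 55.6% called in the combination, against 38.5% of all tested genes, and 27.8% with chaetocin, against 24.5%. PRKAA2, a catalytic subunit of the kinase AMPK, which can activate ULK1, rose by 0.82 ± 0.114 in the combination (edgeR adjusted p = 1.46e-04) and by 0.50 ± 0.113 with chaetocin (edgeR adjusted p = 0.00604). ZKSCAN3, known as a repressor of autophagy genes, fell by 0.61 in the combination and by 0.79 with chaetocin. It overlaps ZSCAN31, at up to 18.2 CPM, by 6358 bases on the opposite strand, so the counts of ZKSCAN3 are uncertain. TFE3, a factor of the same family, was not called, with a log2 fold change of 0.20 ± 0.0789 in the combination (edgeR adjusted p = 0.0607) and -0.053 ± 0.0789 with chaetocin (edgeR adjusted p = 0.685). TFEC, another relative, had 54 reads in all in the combination, 29 with chaetocin, 4 with MLN8237 and 2 in vehicle. With chaetocin MITF fell by 0.53 ± 0.177 (edgeR adjusted p = 0.0458) and MTOR by 0.52 ± 0.142 (edgeR adjusted p = 0.0171). The MITF call was lost under 12 of the 20 alternatives and the MTOR call under 4.

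The lysosome genes, many of which are known targets of TFEB, moved both ways. In the combination 8 of 29 rose and 8 fell, and with chaetocin 4 rose and 8 fell. That is 55.2% called in the combination, against 38.5% of all tested genes, and 41.4% with chaetocin, against 24.5%. GLA, a lysosomal galactosidase, averaged 211 ± 31.8 CPM in the combination, 205 ± 27.2 with chaetocin, 82.4 ± 9.57 with MLN8237 and 71.6 ± 2.48 in vehicle, and rose by 1.56 ± 0.129 in the combination (edgeR adjusted p = 3.75e-06). It overlaps RPL36A-HNRNPH2, at up to 442 CPM, by 10123 bases on the opposite strand, so the counts of GLA are uncertain. CTSL, the protease cathepsin L, rose by 1.06 ± 0.212 in the combination (edgeR adjusted p = 0.00164) and by 0.95 ± 0.211 with chaetocin (edgeR adjusted p = 0.00567). LAMP2, a membrane protein needed for fusion and for chaperone-mediated autophagy, fell to 228 ± 18.5 CPM in the combination and 226 ± 14.9 with chaetocin, against 361 ± 5.29 in vehicle. Its log2 fold change was -0.66 ± 0.0991 in the combination (edgeR adjusted p = 2.32e-04) and -0.68 ± 0.0991 with chaetocin (edgeR adjusted p = 4.38e-04). SCARB2 (LIMP-2), a lysosomal membrane protein that carries glucocerebrosidase, fell by 0.63 in the combination and by 0.65 with chaetocin. NAGLU, a lysosomal glucosaminidase, fell by 0.77 in the combination and by 0.84 with chaetocin.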

How the data were processed

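RNA sequencing counts were used from 12 libraries of PANC-1 cells, in 4 groups of 3. The label of the combination gives its second compound a code that differs by a digit from MLN8237, which the labels' protocols name, and it was read as MLN8237. The submitters' processing notes list hg19 with CASAVA 1.9, TopHat 12.0.6 and HTSeq, and give no roles for them. Strand handling was not given in these sources. Per the file headers, the deposited table has raw count columns and RPKM columns from the authors, and only the counts were analysed. Positions are those of the deposited table, read as hg19, and gene lengths, of which 33.7% are multiples of 3, are not coding lengths alone.

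Counts were fitted as deposited in edgeR 4.0.16 (R 4.3.3): default expression filter by group, TMM scaling, group means over all 12 libraries, robust quasi-likelihood F test and Benjamini-Hochberg adjustment over 22831 genes. CPM values are TMM-scaled. Pathway genes were matched by Ensembl identifier and marker lists by symbol. The procedure was tested on simulated counts. The labels do not say that a replicate number marks a shared culture or day, and only some same-numbered pairs deviated together, so replicate was no term in the main fit. No pair of libraries in a group agreed within sampling noise.

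Named genes were all members, up to 6 called genes with the smallest p in each pathway list (not all printed), and the 3 genes nearest in pattern (mean of at least 5 CPM, prior count 2). The alternatives tried were DESeq2 1.42.0, limma-voom (limma 3.58.1), RLE scaling, no filter, a stricter filter (1 CPM or more in 6 or more libraries), only the groups compared, a replicate block, omission of the 3 treated libraries numbered 3, and each library left out in turn. Members, lists and alternatives were chosen with earlier results of these data known. Coding sequences came from GENCODE release 29 and promoters from RefSeq (GRCh38.p14), read with Biopython 1.88.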

Additional observations from a re-analysis of the deposited data

How the results depend on the processing

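Each result was recomputed under up to 20 alternatives. Of 1190 recomputed values for the members, 1100 kept their direction and their side of the threshold, 24 lost a call, 16 gained one and 50 changed sign, all of the last among values that were not called. The number of called pathway genes with chaetocin was 31 in the main fit. It was 56 when only the groups compared were fitted and 54 without the 3 treated libraries numbered 3. Over all tested genes, 5591 of 22831 were called in the main fit, and 7657 of 21376 and 7577 of 22983 in these fits. The number of called members in combination against MLN8237, 6, was 3 when only the groups compared were fitted. That fit called 7245 of 21688 genes, against 10487 of 22831 in the main fit. For single libraries left out, called members ranged from 3 to 6 with chaetocin and pathway genes called with chaetocin from 18 to 51. All-gene calls were 3733 of 23611 at the lowest of these pathway counts and 7551 of 23643 at the highest. The cause was not tested.

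Log2 values that changed sign were GABARAPL2 in combination against vehicle (0.0029 with RLE scaling, 0.0029 with DESeq2, 0.054 with the stricter filter), SQSTM1 in combination against chaetocin (-0.025 with no filter), ULK1 in the interaction (-0.024 with no filter, -0.000046 with limma-voom) and WIPI1 in combination against chaetocin (0.018 with the stricter filter). Without the 3 treated libraries numbered 3 they were GABARAP in combination (-0.13), chaetocin (-0.018) and MLN8237 (-0.029) against vehicle, and SQSTM1 in MLN8237 against vehicle (-0.055), in combination against chaetocin (-0.00022) and in the interaction (0.055). For single libraries left out, GABARAP ranged from -0.15 to 0.16 in combination, -0.033 to 0.22 in chaetocin and -0.031 to 0.27 in MLN8237 against vehicle, from -0.28 to 0.060 in combination against chaetocin and from -0.32 to 0.056 in combination against MLN8237. GABARAPL2 ranged from -0.091 to 0.076 in combination and -0.010 to 0.13 in chaetocin against vehicle. In MLN8237 against vehicle, GABARAPL1 ranged from -0.075 to 0.11, SQSTM1 from -0.057 to 0.18, ULK1 from -0.033 to 0.11 and WIPI1 from -0.0049 to 0.20. In combination against chaetocin, SQSTM1 ranged from -0.083 to 0.075, ULK1 from -0.028 to 0.11, WIPI1 from -0.074 to 0.013 and MAP1LC3A from -0.061 to 0.22. In the interaction, SQSTM1 ranged from -0.19 to 0.049, ULK1 from -0.082 to 0.077 and MAP1LC3B from -0.036 to 0.22.

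The labels give every group the numbers 1 to 3. Deviations of same-numbered libraries correlated at -0.15 to 0.46 over 18 pairs, 9 of them above 0.1, and 7 of 12 libraries matched their own number best. With replicate number as a block, called members were 7 in combination against vehicle, 6 in chaetocin against vehicle and 7 in combination against MLN8237. Calls over all 22831 tested genes rose too, to 10024, 6798 and 11768 in that order, from 8780, 5591 and 10487 without the block. SQSTM1 then passed in combination against vehicle (edgeR adjusted p = 0.0388), MAP1LC3B in chaetocin against vehicle (0.0168) and MAP1LC3A in combination against MLN8237 (0.0186). The 3 treated libraries numbered 3 correlated at 0.44 or more with each other. TFEB rests on the fewest reads, 69 to 226 per library.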
